A study of Mus musculus with 3 samples.

Results

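The replication-dependent histone genes were followed in C3H10T1/2 cells, a line from mouse embryos that resembles fibroblasts and serves in tests of malignant transformation, after a short exposure to hexavalent chromium, Cr(VI). They were taken as every gene probe whose symbol in the array files named one of the clustered histone genes (Hist1h to Hist4h), and the class H1, H2A, H2B, H3 or H4 was read from the symbol. The rule gave 46 probes for 36 gene symbols, among 41167 usable probes. H1 had 8 probes for 6 genes, H2A 16 for 11, H2B 11 for 10, H3 3 for 3 and H4 8 for 6. By the coordinates in the array files, 31 of the probes lay on chromosome 13, 9 on chromosome 3, 4 on chromosome 11 and 2 on chromosome 6.

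There were 3 groups of the same line, which differed by treatment only: untreated cells, cells given 0.01 uM Cr(VI) and cells given 1 uM Cr(VI). Exposure began 24 h after 2000 cells were put into each 25 cm2 flask and lasted 48 h, and the cells were then kept in fresh medium to day 15, when RNA was taken. Each group had 3 flasks but 1 array, and the labels do not say whether the flasks were pooled. Every difference below is therefore one between 2 single arrays, with no replicate check and no p-value.

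Histone proteins package DNA, with H2A, H2B, H3 and H4 forming the core of the nucleosome and H1 binding the DNA between cores. The clustered genes are transcribed mainly in S phase, and their mRNAs normally end in a conserved stem-loop, bound by the protein Slbp, in place of a poly(A) tail. Some of these genes can also yield polyadenylated mRNA, which is known from cells that have left the cycle or differentiated. The labelling here began with an oligo-dT primer, per the labels' protocol, so that it reaches polyadenylated ends, and stem-loop-ended mRNA is copied only as far as that primer can start elsewhere in it. The levels of these probes are therefore not total histone mRNA.

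Many of these genes are near-identical copies, and 13 of the 46 probes are listed in the array files under RefSeq accessions of more than 1 gene. The H2B class shows this best, since the probes at its head differ from one another by a few bases. These 3 probes of 60 bases are given 5′ to 3′, with capitals at the bases that differ from the Hist1h2bk probe. The Hist1h2bk probe lies at chr13:22127928-22127987 on the plus strand (mm9, the build of the array files), the Hist1h2bm probe at chr13:21814139-21814198 on the plus strand, and the Hist3h2bb probe at chr11:58767697-58767756 on the minus strand.
Hist1h2bk: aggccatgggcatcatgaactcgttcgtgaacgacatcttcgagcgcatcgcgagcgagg
Hist1h2bm: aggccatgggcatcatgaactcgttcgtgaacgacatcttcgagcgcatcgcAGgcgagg
Hist3h2bb: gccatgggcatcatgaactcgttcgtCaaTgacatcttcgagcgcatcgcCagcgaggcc

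The Hist1h2bm probe differed from the Hist1h2bk probe at 2 of 60 bases, and the Hist3h2bb probe at 3 of the 58 bases they share. The Hist1h2bk probe is also listed for Hist1h2bj, Hist1h2bl and Hist1h2bn, and the Hist1h2bm probe for Hist1h2bg, Hist1h2bc and Hist1h2bh. Over the 5 H2B probes that start within the first 500 bases of their transcript record, 12 genes were listed. No histone probe had more than 4 RefSeq accessions listed, so sharing may be wider than listed. Probes that share sequence in this way report a class, and their values are not independent of one another.

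The H4 class holds a pair that overlaps without any mismatch over 50 bases, shown in capitals. The Hist1h4f probe lies at chr13:23643249-23643308 on the minus strand and the Hist1h4d probe at chr13:23673665-23673724 on the plus strand (mm9).
Hist1h4f: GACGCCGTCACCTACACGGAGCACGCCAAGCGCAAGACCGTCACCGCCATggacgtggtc
Hist1h4d: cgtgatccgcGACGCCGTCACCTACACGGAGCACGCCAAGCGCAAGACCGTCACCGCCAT

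The Hist1h3a probe (chr13:23853756-23853815, minus strand, mm9) held the whole histone stem-loop pattern. With both strands searched, it was 1 of 46 histone probes and 1 of all 41174 probes with a sequence to hold it. An excerpt of 24 of its 60 bases is shown because the stem-loop is the feature that sets these mRNAs apart, with the stem and loop in capitals.
Hist1h3a: ccaaaGGCTCTTTTCAGAGCCaca

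The unit of every level is the log2 signal of a probe minus the 75th percentile of all probes on its array, so that 0 is the 75th percentile and 1 step is a factor of 2. A probe was called detected where the scanner software put it well above background. Of the 46 histone probes, 33 were detected in untreated cells, 31 after 0.01 uM and 33 after 1 uM. On all 3 arrays 30 were detected, on none 12, and on some 4. The share detected on at least 1 array was 73.9%, against 44.0% of all usable probes. H2B had 8 of 11 probes detected on each array, and H2A 11 of 16. H4 had 7 of 8 in untreated cells, 7 after 0.01 uM and 8 after 1 uM. H1 had 5 of 8, 3 and 4 in the same order.

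The brightest probes belonged to H3, H2A and H1. Hist2h3c1, a gene of histone H3, stood at 6.51, 7.00 and 6.43 on the untreated, 0.01 uM and 1 uM arrays, and its spots were saturated on all 3. Hist1h3d, another H3 gene, stood at 6.42, 6.84 and 6.09, saturated on the first 2. Saturated spots have only a lower bound, so H3 gave 1 usable difference. The third H3 probe, Hist1h3a, was not detected on any array, at -3.68, -4.24 and -3.06.

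Among H2A genes, the Hist1h2af probe that starts at base 328 stood at 6.36, 6.42 and 6.10 on the untreated, 0.01 uM and 1 uM arrays, and Hist1h2aa at 6.28, 6.34 and 6.08. Hist2h2ac followed at 6.03, 6.12 and 5.95. These lay within 0.4 of one another on each array. In all, 7 histone probes exceeded 35000 units on at least 1 array, where the scanner's limit is 65522 units. Of these, 2 had saturated pixels, both of them H3 probes. Differences at that end may be compressed. Whether they were was not tested.

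**Figure D1:**
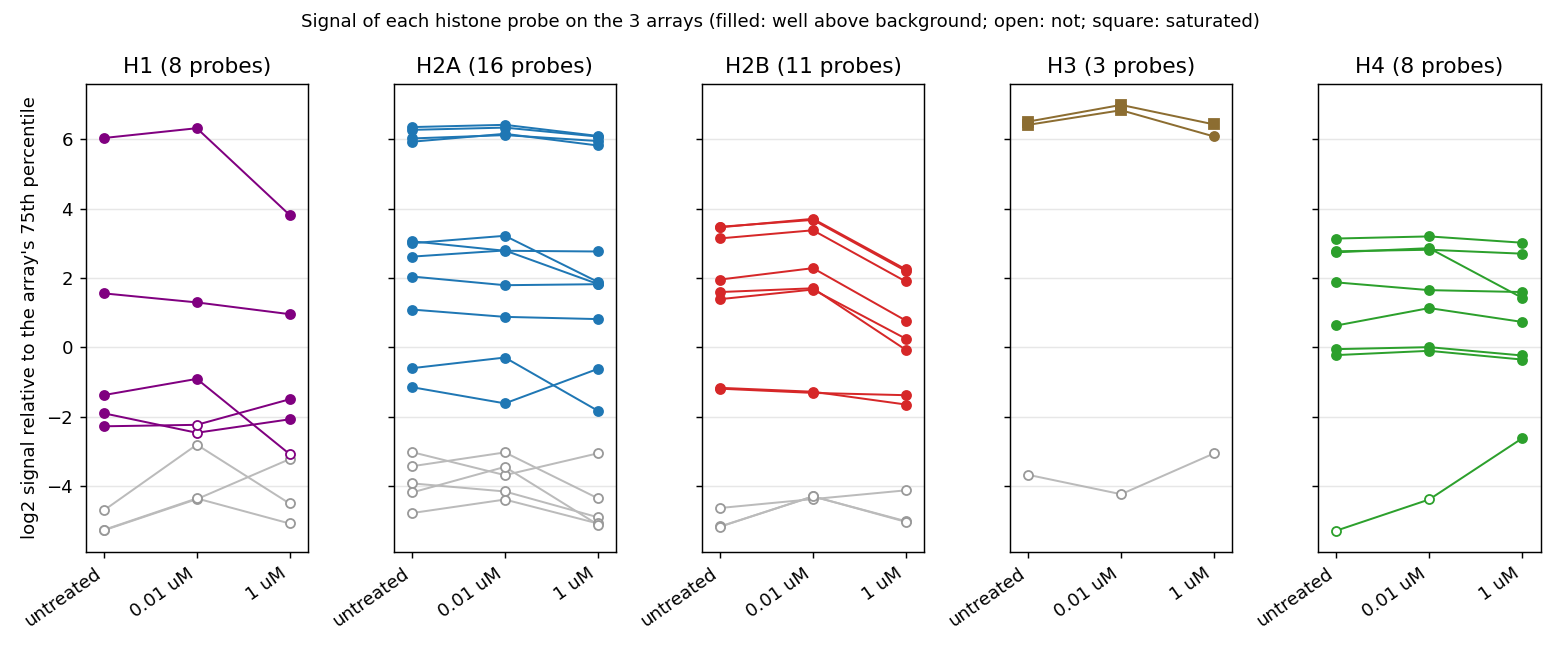
Each line is 1 histone probe, drawn by class, with its log2 signal relative to the array's 75th percentile on the untreated, 0.01 uM and 1 uM arrays. Filled points were well above background, open points were not, squares were saturated and grey lines were detected on no array. The 6 upper H2B lines and the top H1 line (Hist1h1c, 6.04, 6.32 and 3.82) bend down at 1 uM on this scale, while the upper H2A lines stay near 6.

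The main comparison asked how these genes differed between cells given 1 uM Cr(VI) and untreated cells. On the 75th percentile scale, the H2B class stood lowest, with a median log2 difference of -1.20 over 8 probes, all 8 of them below 0. It was -0.60 for H1 (5 probes), -0.26 for H2A (11) and -0.12 for H4 (8). The 1 usable H3 difference, a bound, was at most -0.34. Scaling on the spike-in controls moved the median of all detected probes from -0.04 to 0.69. The H2B median was then still below 0 at -0.47, while those of H1 (0.13), H2A (0.47) and H4 (0.60) lay above 0. The H3 value was then at most 0.39, because its untreated spot was saturated, so its direction is unknown. The gap between the H2B and H4 medians was -1.07, and it ranged from -1.02 to -1.08 over 12 settings. Settings that subtract 1 constant per array, such as spike-in scaling, cannot move this gap, so its narrow range is partly built in.

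A probe was compared where it was detected on at least 1 of the 2 arrays, which held for 34 histone probes. Of these, 0 were higher at 1 uM by 2-fold or more and 11 were lower by as much, 1 of the 11 by a bound. The same line was passed by 5.29% of all 18096 compared probes upward and by 4.71% downward. At 1.5-fold, 1 histone probe was higher and 13 were lower, where all probes gave 13.8% each way. The histone share of lower probes was 32.4%, and 19.2% of the 26 probes outside H2B. With spike-in scaling the counts were 3 higher and 1 lower, where all probes gave 28.1% and 1.19%. The median over the 33 histone probes with a usable value was -0.28, with 29 below 0 and 4 above, against -0.04 over all probes. Because the genes were picked with results of these arrays in view, and many probes share sequence, these counts describe the class and test nothing. In such a culture, fewer cells of a kind and less RNA per cell cannot be told apart.

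**Figure D2:**
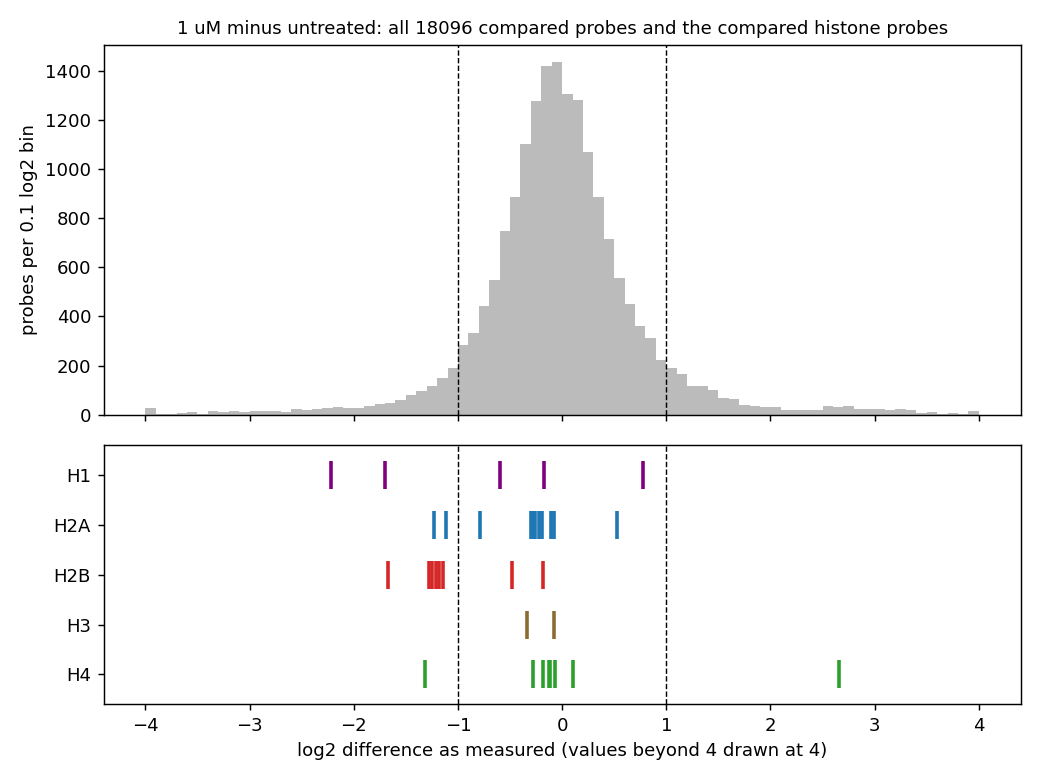
The upper panel is a histogram of the log2 difference, 1 uM minus untreated, of all 18096 compared probes relative to the 75th percentile of each array, and each tick below is 1 compared histone probe, by class, as measured. Dashed lines mark a 2-fold difference. Of 8 H2B ticks, 6 lie below -1 and form a tight group, while most H2A and H4 ticks lie within the centre of the histogram, whose median was -0.04 (0.69 with spike-in scaling).

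H1 genes encode linker histones. Hist1h1c, which encodes a linker histone of somatic cells, had the lowest difference of any histone probe. The gene had no second probe to set beside this one, which starts at base 1346 of its transcript record. Its level was 6.04 in untreated cells, 6.32 after 0.01 uM and 3.82 after 1 uM. The 1 uM array thus stood apart from both others, and the difference from untreated was -2.22, or 4.66-fold lower. The raw signals were 45929, 41298 and 10640 units. Its difference stayed below 0 under all 11 settings that gave one, from -2.22 to -1.49.

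Hist1h1e, another linker histone gene, stood at 1.56, 1.30 and 0.96 and was -0.60 from untreated at 1 uM. Hist1h1b was at -0.17. Hist1h1d had 2 probes far apart in its transcript record, and they disagreed. The one that starts at base 2300 stood at -1.38, -0.91 and -3.08 and was not detected at 1 uM, which gave at least 2.69-fold lower. The one that starts at base 549 stood at -2.28, -2.24 and -1.50 and was higher at 1 uM by 0.78 on the log2 scale. The direction for Hist1h1d is therefore unsettled. Hist1h1a and Hist1h1t, known as a testis form, and the second Hist1h1e probe were not detected on any array.

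H2B genes encode the partner of H2A in the nucleosome core. Hist1h2bc, whose probe starts at base 597 and is listed for that gene alone, stood at 1.60 in untreated cells, 1.70 after 0.01 uM and -0.07 after 1 uM. That made it 3.18-fold lower at 1 uM than untreated. Only the 1 uM array was low.

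The 2 Hist1h2bk probes gave levels of 1.39, 1.67 and 0.25 (start at base 106) and of 3.48, 3.68 and 2.21 (start at base 172). Their differences at 1 uM from untreated, -1.14 and -1.27, lay 0.13 apart. Hist1h2bm stood at 3.46, 3.71 and 2.25 and was at -1.21. Hist3h2bb stood at 3.14, 3.38 and 1.90 and was at -1.24. RefSeq carries that symbol today under a name that marks a pseudogene (H2bu1-ps), and its probe is listed for Hist3h2ba. These shared-sequence probes thus lay within a narrow band at 1 uM.

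Hist1h2ba is known as the H2B gene of the testis. Its probe stood at 1.96, 2.29 and 0.77 and was 2.27-fold lower at 1 uM. It shares 40 bases with the Hist1h2bk probe above, 5 of them mismatched, so some of its signal may come from other H2B mRNA, which was not tested. The 2 remaining detected H2B probes lie far down long transcript records and were closer to 0. Hist2h2bb was at -0.48 and Hist2h2be at -0.19. The undetected H2B probes were Hist1h2be, Hist1h2bp and Hist3h2ba.

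H2A probes made up a group near 0 and a group below it. Hist3h2a had 2 probes that agreed in direction, with levels of 3.01, 3.22 and 1.89 (start at base 767) and of 2.62, 2.80 and 1.83 (start at base 200). The first was 2.16-fold lower at 1 uM than untreated and the second 1.73-fold lower. These 2 values, -1.11 and -0.79, are also those just inside and just outside the 2-fold line among all lower histone probes. Hist3h2a and Hist3h2bb are neighbours on chromosome 11 on opposite strands, with probes at 58768387 to 58768446 on the plus strand and 58767697 to 58767756 on the minus strand (mm9).

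Hist2h2aa1 had 1 detected probe of 3, at -0.60, -0.29 and -1.83, which was 2.34-fold lower at 1 uM. The Hist2h2ac probe listed also for Hist2h2aa1 and Hist2h2aa2, far brighter at 42632 units on the untreated array, was at -0.11. Probes for the same listed genes thus differed by over 1 log2 step. The other H2A probes lay close to 0. Hist1h2af (-0.29 and -0.26), Hist1h2ai (-0.27), Hist1h2ak (-0.22) and Hist1h2aa (-0.19) were slightly lower on this scale, while with spike-in scaling the brighter Hist1h2af probe (0.47) and Hist1h2aa (0.54) were above 0. Hist1h2ab, a dim probe, was higher by 0.53. Hist1h2ac, Hist1h2ae and Hist1h2al were not detected, nor were 2 Hist2h2aa1 probes.

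H4 genes encode the most conserved core histone. The H4 probes that start within the first 300 bases lay between -0.28 and 0.10 at 1 uM from untreated. Hist1h4f stood at 3.14, 3.20 and 3.02, a difference of -0.12. The Hist1h4d probe that shares 50 bases with it stood at 2.77, 2.82 and 2.70, a difference of -0.07. Hist1h4i was the exception, with levels of 2.74, 2.86 and 1.43, which made it 2.48-fold lower at 1 uM. Its probe starts at base 539 of its own record, and no RefSeq accession is listed for it. The array files place it at chr13:22132449-22132455 on the minus strand (mm9), a span far shorter than its 60 bases. Whether it reads Hist1h4i was not tested. A second Hist4h4 probe, which starts at base 1784, was detected on the 1 uM array only, at -2.63, which gave at least 1.28-fold higher.

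**Figure D3:**
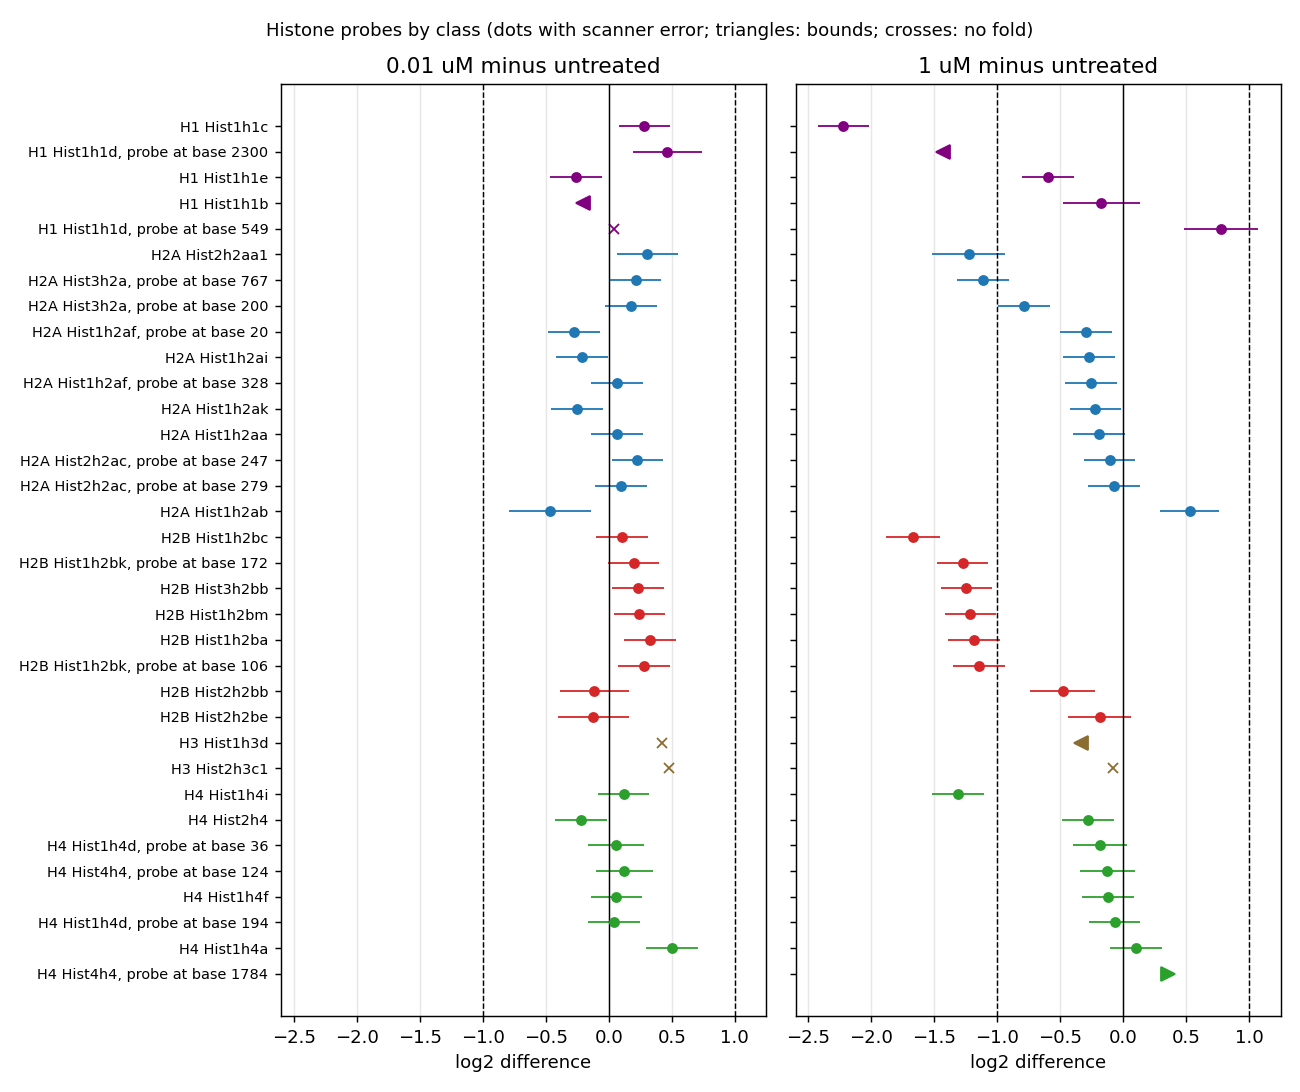
Log2 differences of the 34 histone probes compared at 1 uM, grouped by class, for 0.01 uM minus untreated (left) and 1 uM minus untreated (right), relative to the 75th percentile of each array. Dots are measured differences with the scanner software's standard error (median 0.20), triangles are bounds and crosses are pairs with no fold. On the left all values lie inside 1 log2 step, and on the right 11 lie beyond -1, 6 of them H2B. With spike-in scaling 1 was beyond -1.

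The position of the probe was looked at because coding sequence is shared between copies and later sequence is not. Among core histone probes that start before base 500, 5 of 5 H2B probes were at least 2-fold lower at 1 uM than untreated, with differences from -1.27 to -1.14. In the same window 1 of 10 H2A probes and 0 of 6 H4 probes passed that line. The count was 0 of 2 for H3, but both H3 probes were saturated on the untreated array, so a lower value could be missed. Among probes that start at base 500 or later, 6 of 14 were compared and 8 were detected on no array. Of the 6, Hist1h2bc, Hist3h2a and Hist1h4i were at least 2-fold lower. The split at base 500 was chosen after the values were seen.

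**Figure D4:**
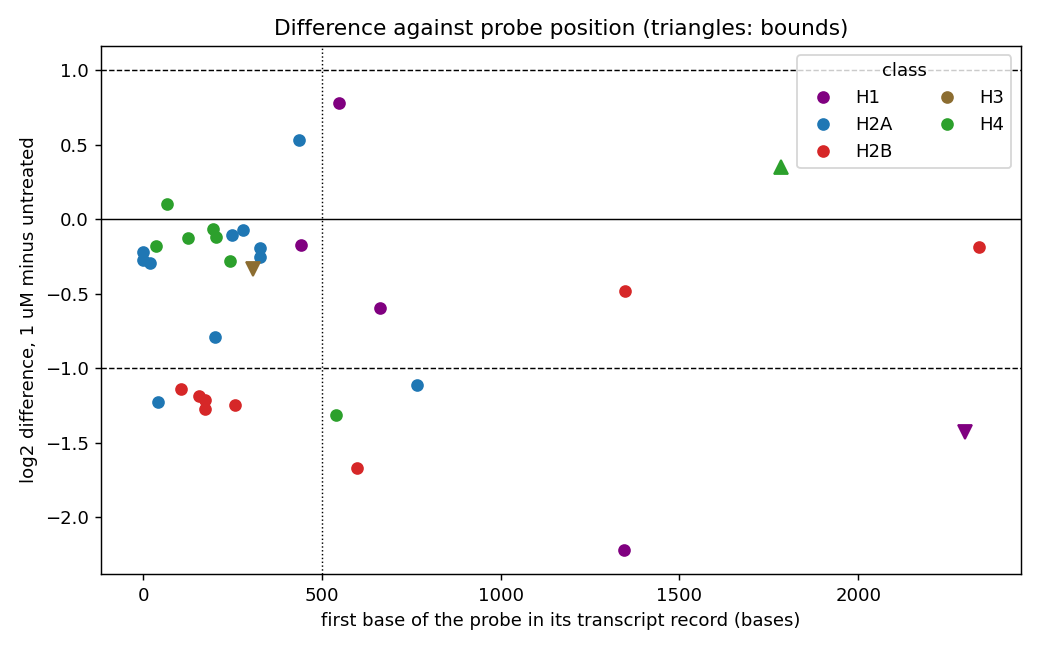
The log2 difference at 1 uM from untreated, relative to the 75th percentile, against the first base of the probe in its transcript record, coloured by class, with triangles for bounds. The dotted line is base 500 and the dashed lines a 2-fold difference. To the left of base 500 the 5 H2B points sit together below -1, apart from the H4 and most H2A points near 0. To the right, lower values occur in H1, H2A, H2B and H4.

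At 0.01 uM, 33 histone probes were compared with untreated cells, and 0 were 2-fold higher or more and 0 were lower by as much. All 17257 compared probes gave 0.29% higher and 0.162% lower. At 1.5-fold the histone counts were again 0 and 0, where all probes gave 0.933% higher and 1.27% lower. The median histone difference was 0.10, against 0.03 over all probes. It was 0.22 for H2B, 0.06 for H2A, 0.06 for H4 and 0.04 for H1. The H2A median turned below 0 with quantile, normexp and loess scaling, and that of H1 with the 75th percentile of detected probes (-0.02). The 6 H2B probes that were at least 2-fold lower at 1 uM lay between 0.11 and 0.33 at 0.01 uM. The values farthest from 0 among probes detected on both arrays were Hist1h4a at 0.50 and Hist1h2ab at -0.47. Hist1h1b was at -0.56 as measured, but it was not detected at 0.01 uM and has only a bound there. The scanner software's standard error of such a difference had a median of 0.20 and does not cover differences between cultures.

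The comparison of the 1 uM array with the 0.01 uM array shares its 1 uM array with the main one. Of 34 histone probes, 0 were higher by 2-fold or more and 11 were lower by as much at 1 uM. All 17356 compared probes gave 5.12% higher and 6.31% lower. At 1.5-fold, 2 histone probes were higher and 13 lower, where all probes gave 12.5% and 17.3%. The class medians were -1.46 for H2B, -0.34 for H1, -0.26 for H2A and -0.21 for H4. The 1 H3 value, a bound, was at most -0.76. With spike-in scaling the H2B median was -1.07, and the 1 H3 value at most -0.36. The medians of H1 (0.06), H2A (0.14) and H4 (0.18) then lay above 0. Hist1h1c was 5.67-fold lower at 1 uM than at 0.01 uM, Hist1h2bc 3.42-fold, Hist2h2aa1 2.89-fold, Hist1h4i 2.70-fold and Hist3h2a 2.51-fold (probe at base 767). Hist1h2ab was nearest to 2-fold higher, at 0.99.

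Promoters were read from RefSeq (GRCm38.p6) for genes of the class, as the 250 bases before and 50 after the start. All 36 symbols matched a RefSeq gene by name or synonym, and 30 had a promoter. The 2 printed here belong to Hist1h1c, the member with the lowest difference, and to Hist3h2a, whose 2 probes were both lower. Capitals mark 4 motifs where present, searched on both strands. They were the core promoter motif TATAAA, the common promoter motif CCAAT, the octamer motif ATTTGCAT and the H1 box, written AAACACA. None of the 4 contains another. The Hist1h1c window is chr13:23738557-23738856 on the plus strand and the Hist3h2a window chr11:58954435-58954734 on the plus strand.
Hist1h1c: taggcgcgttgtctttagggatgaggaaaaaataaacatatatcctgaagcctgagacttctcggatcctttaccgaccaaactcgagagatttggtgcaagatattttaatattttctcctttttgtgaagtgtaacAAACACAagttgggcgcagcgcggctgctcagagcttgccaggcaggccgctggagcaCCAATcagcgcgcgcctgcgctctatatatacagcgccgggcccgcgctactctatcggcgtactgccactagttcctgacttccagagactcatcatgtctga
Hist3h2a: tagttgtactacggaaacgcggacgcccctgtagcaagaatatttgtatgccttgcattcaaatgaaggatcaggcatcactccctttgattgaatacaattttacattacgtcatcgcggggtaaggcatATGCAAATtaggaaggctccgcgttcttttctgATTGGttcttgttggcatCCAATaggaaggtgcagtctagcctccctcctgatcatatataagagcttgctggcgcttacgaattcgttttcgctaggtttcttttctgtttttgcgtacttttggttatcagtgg

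The Hist1h1c window held AAACACA and CCAAT, with CCAAT nearer the start. The Hist3h2a window held the octamer, read on the other strand, and CCAAT on both strands. Over the class, CCAAT was found in 27 of 30 promoters, against 37.9% of all 27025 RefSeq promoters in the table. TATAAA was found in 20 of 30, against 14.2%. The octamer was found in 10 of 30, against 1.75%, with 6 of 10 H2A and 4 of 7 H2B promoters and 0 of the 13 others. AAACACA was found in 9 of 30, against 7.14%, and in 5 of 6 H1 promoters. Members with and without a low value at 1 uM both held these letters. Hist1h2ba and Hist1h2aa start 281 bases apart on opposite strands and share much of 1 window, and their differences at 1 uM were -1.18 and -0.19. The Hist1h2aa probe is 1 of the brightest H2A probes, at 54037 units on the untreated array, though none of its pixels were saturated. Whether either probe reads its named gene alone was not tested, so the 2 values need not be those of these 2 genes.

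Genes that act with the histone genes were followed in lists, each gene by its brightest probe. Of 12461 genes compared between 1 uM and untreated cells, 5.56% passed 2-fold upward and 4.87% downward. Replacement and variant histones, most of which are made also outside S phase and have polyadenylated mRNA, had 0 of 12 genes higher and 1 lower. Their median was -0.30. With spike-in scaling it was 0.43, and 0 of 12 were lower, where 1.19% of all probes were. The 1 gene was H1fx, a linker histone variant, at 1.89, 2.28 and 0.45, a difference of -1.45. Its other probe was at -0.32. H1f0, a linker histone linked to differentiation, stood at 3.05, 3.51 and 2.28 and was at -0.77. Its 2 other compared probes were closer to 0, at -0.51 and -0.37. Both linker variants were thus lowest on the 1 uM array.

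Factors of histone mRNA 3′ end formation and turnover had 1 of 19 genes higher and 0 lower, with a median of 0.10. With spike-in scaling 5 of 19 were higher, with a median of 0.82. On that scale 28.1% of all probes were higher, and the median of all detected probes was 0.69. With normexp correction 0 of 19 were higher, where 2.04% of all probes were. The 1 gene was Dcp2, a decapping enzyme, at 0.11, 0.05 and 1.13, a difference of 1.03. Slbp, the stem-loop binding protein, was at -0.11 and was named after its values were seen. Histone chaperones had 1 of 17 higher and 0 lower, with a median of 0.11. With spike-in scaling 7 of 17 were higher, where 28.1% of all probes were, and the median was 0.84. Nasp, a chaperone of H1 and H3, stood at 2.81, 2.91 and 4.06, a difference of 1.25.

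S phase genes had 2 of 33 higher and 0 lower, with a median of 0.34, and 28 of 33 lay above 0. With spike-in scaling 18 of 33 were higher, where 28.1% of all probes were. E2f2, a transcription factor of the G1 to S transition, stood at 0.10, 0.01 and 1.73, a difference of 1.64. Ccne1, which encodes cyclin E, stood at 2.30, 2.39 and 3.46, a difference of 1.17. Their median therefore had the opposite sign to that of the clustered histone probes on this scale, and it was above 0 in all 11 settings, from 0.32 to 1.06.

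G2 and mitosis genes had 0 of 17 higher and 0 lower, with a median of -0.06 that turned above 0 with some scalings. It reached 0.67 with spike-in scaling, where 1 of 17 was higher, against 28.1% of all probes. Birc5, an inhibitor of apoptosis that acts in mitosis, stood at 5.38, 5.47 and 5.23. Cdc20, an activator of the anaphase-promoting complex, stood at 4.80, 4.83 and 4.76. The poly(A) machinery had 0 of 13 higher and 0 lower, with a median of 0.25. With spike-in scaling 6 of 13 were higher, where 28.1% of all probes were. The median of the list was then 0.98, against 0.69 over all detected probes. Its brightest genes were Pabpc1, a poly(A)-binding protein, at 6.33, 6.45 and 5.84 (-0.49 at 1 uM from untreated), and Cpsf4, a subunit of the cleavage complex, at 3.70, 3.63 and 4.08. The other compared Pabpc1 probe was at 0.99, so the direction for that gene is unsettled. Among the other probes of this list, the values as measured ran from -0.81 (Wdr33) to 1.25 (Pabpn1). No list but that of the variants had a median as low as that of H2A on the 75th percentile scale.

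**Figure D5:**
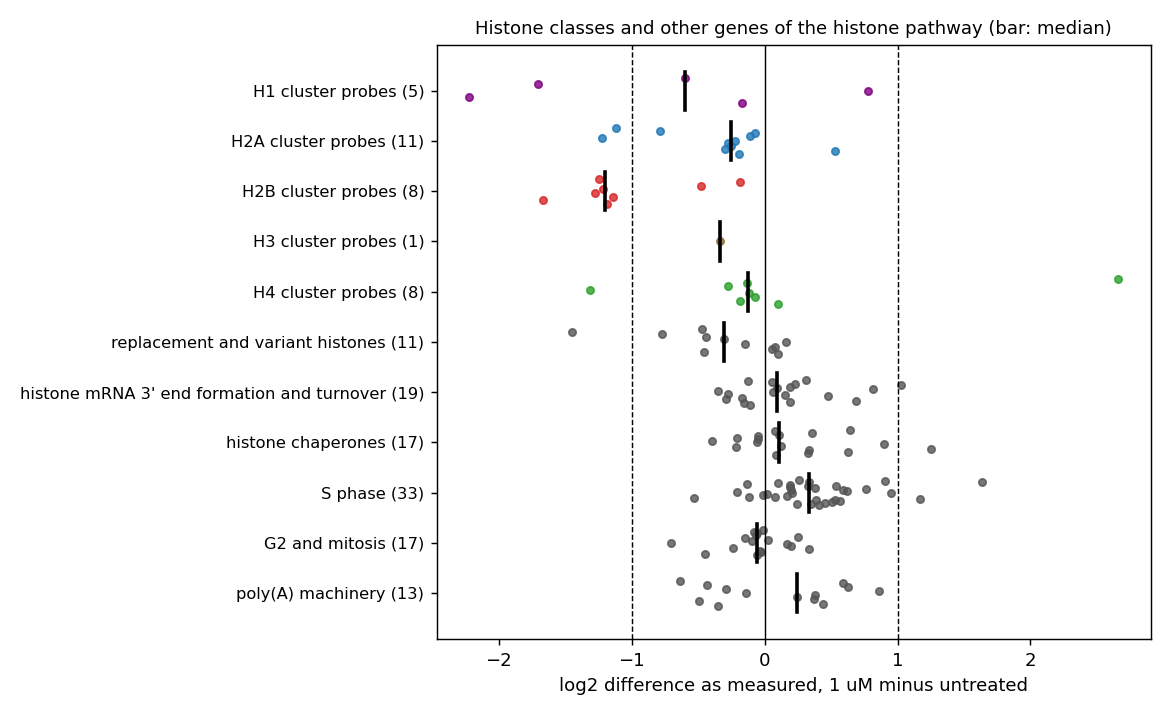
Log2 differences at 1 uM from untreated, relative to the 75th percentile, for the compared probes of each histone class and for the genes of the 6 other lists, with the median as a black bar. Probes saturated on both arrays are left out. The H2B bar lies at -1.20 and the S phase bar at 0.34. Spike-in scaling moves the S phase bar to 1.06 and the H2B bar to -0.47.

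At 0.01 uM from untreated, all 6 lists had 0 genes past 2-fold in either direction, where all genes gave 0.26% higher and 0.168% lower. Between 1 uM and 0.01 uM all genes gave 5.19% higher and 6.46% lower. There the variants had 2 of 11 lower, H1fx (-1.83) and H1f0 (-1.24), and S phase had 3 of 32 higher, E2f2 (1.72), Dbf4 (1.18), the regulatory subunit of a replication kinase, and Ccne1 (1.07). Nasp (1.15) and Dcp2 (1.08) were the others past 2-fold. With spike-in scaling the variants had 1 lower, while 5 genes of S phase, 3 chaperones, 3 genes of the 3′ end list and 1 of the poly(A) list were higher, where all probes gave 11.9% higher and 2.72% lower.

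All 3 arrays were on 1 slide and scanned together, so no batch could be separated. The share of all probes detected was 41.8% on the untreated, 36.4% on the 0.01 uM and 41.5% on the 1 uM array, and the SD between replicate spots of a probe was 0.057 to 0.061. Of 10 fibroblast and mesenchymal markers, 10, 10 and 9 were detected in the same order, and Thy1 was the one not detected at 1 uM. Their summed log2 level was 52.0, 54.5 and 43.4, and 49.2, 51.0 and 47.0 over the 9 detected on all arrays, without Thy1. At 1 uM from untreated, Lum (0.98) and Pdgfra (0.21) were above 0, 3 measured markers and 2 with a bound were below 0, and 3 were saturated with no fold. Of 8 leukocyte markers, 1, 1 and 2 were detected. Cd68 was detected on every array (2.08, 2.01 and 2.04) and Aif1 at 1 uM only, while Ptprc was not detected on any array. Of 3 muscle markers 1, 0 and 1 were detected (Des), and of 3 neural markers 1 on each array (Tubb3). Of 4 endothelial markers 0, 0 and 1 were detected, and of 4 epithelial markers none on any array. Marker levels thus differed on the 1 uM array in both directions, and their part in the low histone values was not tested.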

How the data were processed

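The deposited spot intensity comes from 1-colour Cy3 scans read with Agilent Feature Extraction 10.5.1.1, with spatial and multiplicative detrending, per the file headers. The log2 values of the deposited series table differed from log2 processed signal by 1 constant per array (9.45 untreated, 9.01 at 0.01 uM, 9.56 at 1 uM; within 0.01 for over 99.8% of probes). Their column medians were -4.23, -3.96 and -4.03, so scale and direction are those used here, centred on the 75th percentile.

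Control and outlier spots were left out, spots of a probe averaged and each array's 75th percentile subtracted. A dim spot gives a bound against the higher of its own value and the lowest detected signal of its array. Saturation of the brighter spot likewise leaves a bound, and pairs saturated on both arrays give no fold. Printed values were those of every member at least 2-fold apart in any comparison and of the 3 brightest per class. For the lists, values were printed for genes at least 2-fold apart, otherwise the 2 brightest, and for Slbp, chosen after its values were seen. Members and lists were chosen with earlier results of these data known. With 1 array per group the number of arrays limits precision and no test was made. Alternatives were other scalings (quantile and normexp with offset 50 from limma 3.58.1 in R 4.3.3, loess with span 0.4, 5 spike-in controls), filters, thresholds, gene means, outlier spots kept and the authors' table. Other steps used statsmodels 0.14.6, pandas 2.3.3 and numpy 2.4.6 under Python 3.11.15. The comparison step was tested on simulated data.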

Additional observations from a re-analysis of the deposited data

How the results depend on the processing

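The direction of each median and the counts were recomputed under 13 alternatives and 2 more added after seeing the data (probes under 40000 units on all arrays, and bounds in place of dim values). No value past 2-fold reversed. For 1 uM against untreated, spike-in scaling gave 3 histone probes higher, 1 lower and a median of 0.45. No filter on dim probes gave 2 higher, a 1.5-fold threshold 1 higher and a 3-fold threshold 2 lower. For 0.01 uM against untreated, the median was 0.43 with spike-in scaling, and 1 probe was higher with no filter. For 1 uM against 0.01 uM, scaling on the detected probes gave 1 probe higher, by their 75th percentile and also by their median (1), against 2 with spike-in scaling, 3 with no filter and 2 at 1.5-fold, and 3 were lower at 3-fold. The median was -0.21 when scaled on the detected probes' 75th percentile, -0.25 with quantile normalization, -0.25 with normexp and 0.0573 with spike-in scaling. Spike-in scaling shifts every probe alike, and no filter adds 12 probes with no detected signal. Other causes were not tested. With the added limit of 40000 units 10 of 27 probes were lower at 1 uM than untreated. No paired analysis was possible because each group had 1 array. Signal over background limits 12 probes detected on no array, and saturation limits H3.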

Other observations

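Probes of histone genes whose symbols do not follow the cluster names were outside the rule. A probe under a clone name matched Hist1h2bq and stood at -2.68 on the untreated array, where it was detected, and at -3.16 and -3.89 on the 0.01 uM and 1 uM arrays, where it was not. The H4 gene 4930558J22Rik was not detected on any array.

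Genes with several compared probes differed in how well those probes agreed at 1 uM from untreated. The probes of Hist1h2af, Hist2h2ac, Hist1h4d and Hist1h2bk lay 0.04, 0.03, 0.11 and 0.13 log2 steps apart, and those of Hist3h2a 0.33. The probes of Hist1h1d lay 2.48 apart and those of Hist4h4 2.79 as measured, and in each of these pairs 1 probe was not detected on 1 of the arrays.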
